A study of Mus musculus with 2 samples.

Results

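The transcripts of 10 antioxidant enzymes were followed in single cells of mouse bone marrow, out of 32285 genes in the count tables. The genes were taken by symbol from a given list, and each symbol matched 1 gene. They were Prdx1, Prdx2, Prdx5 and Prdx6 (peroxiredoxins, which reduce hydrogen peroxide and other peroxides with a reactive cysteine), Gpx1 and Gpx4 (glutathione peroxidases that carry selenocysteine), Cat (catalase), Sod1 (the cytosolic copper and zinc superoxide dismutase), Txn1 (thioredoxin, which recharges peroxiredoxins) and Blvrb (a reductase of biliverdin and flavins). Superoxide dismutase turns superoxide into hydrogen peroxide, and peroxiredoxins, glutathione peroxidases and catalase then remove the peroxide, with thioredoxin or glutathione and NADPH as the source of electrons. Red blood cells carry much oxygen and iron bound to hemoglobin, and peroxiredoxin 2, catalase and glutathione peroxidase 1 are well known as their main peroxide-removing enzymes. Erythroid cells build up hemoglobin messenger RNA as they mature, while most other transcripts are lost.

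Femoral marrow of control and DKO mice at an age of 2 months gave 1 library per genotype. The number of mice behind each library is not given. The labels call the control WT, whereas the study's methods describe controls as Ddx41 fl/fl littermates with no VavCre and an unaltered cGAS gene. The DKO sample is labelled as carrying VavCre, Ddx41 fl/fl and cGAS-/-. This design was meant to remove the RNA helicase Ddx41 from blood-forming cells and the DNA sensor cGAS from all cells. VavCre is active in the whole hematopoietic lineage, and its activity has also been described in endothelial cells and oocytes. Since both changes came together, no difference between the libraries can be given to either allele. As each genotype had 1 library, variation among mice is unknown, no test between genotypes was made, and every interval is a 95% interval for counting error only. Levels in summed cells also cannot tell fewer transcripts in each cell from fewer expressing cells.

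After quality control the control library held 18590 cells with 118154534 UMIs (unique molecular identifiers, each standing for 1 captured transcript). The DKO library held 13723 with 114719859 UMIs. A median cell had 4870 UMIs in control and 6903 in DKO, and 75 cell barcodes occurred in both libraries. Cells had been called by the authors in the DKO table, while the control table gave every barcode and its cells were selected for the present work. Over all cells Ddx41 stood at 20.3 and 8.01 counts per 1000000 UMIs (CPM) in control and DKO, and Cgas at 13.6 and 7.23. The pooled values also follow the cell makeup of each library. Within granulocyte-monocyte progenitors Ddx41 was at 47.1 and 19.5 CPM (log2 ratio -1.27) and Cgas at 37.2 and 30.1 (-0.30). The Cgas ratio was -0.51 in monocytes, -0.37 in neutrophils, -0.25 in progenitors and 2.45 in stromal cells, the last from 1 and 5 UMIs. Neither gene was at 0 in the library labelled DKO, and whether the 3' reads lie in the deleted parts was not examined. Of 42 clusters, 13 were erythroid-like, 5 of them early with 7 to 9 of 9 early markers raised and 8 late with 7 to 10 of 10 late markers raised, and 2 stayed unnamed. The 7800 control and 6458 DKO erythroid cells were divided into 5 stages by the share of their UMIs from 8 hemoglobin genes. From first to last, the stages held 1012, 542, 1215, 3630 and 1401 control cells and 712, 498, 1215, 1417 and 2616 DKO cells.

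In GRCm38, Prdx1 lies on chromosome 4 from 116685544 to 116700822, Prdx2 on chromosome 8 from 84969587 to 84974834, Prdx5 on chromosome 19 from 6906697 to 6910106 and Prdx6 on chromosome 1 from 161240112 to 161251219. Gpx1 lies on chromosome 9 from 108338903 to 108340343 and Gpx4 on chromosome 10 from 80047166 to 80056439. Cat lies on chromosome 2 from 103453849 to 103485160, Sod1 on chromosome 16 from 90220754 to 90226329, Txn1 on chromosome 4 from 57943373 to 57956411 and Blvrb on chromosome 7 from 27447978 to 27466144. Prdx2 overlaps Rnaseh2a and Junb, Prdx5 overlaps Trmt112, and Sod1 overlaps Scaf4, in each case on the opposite strand. The strand setting of the counting is not given in the sources used here. Of the 31-base words in the last 500 bases of the protein-coding transcripts, which is where 3' reads fall, 94.0% of Gpx4, 45.7% of Sod1, 32.8% of Prdx1 and 12.3% of Prdx2 also occurred in pseudogenes or copies that the count tables do not list. Prdx6 shared 1.06% with Prdx6b and a pseudogene, and the other members shared none. The counts of Gpx4, Sod1, Prdx1 and Prdx2 are uncertain to that extent.

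Prdx2, Cat and Blvrb shared high levels in erythroid stages, and the sequence before their first annotated transcript start is shown for that reason (RefSeq promoters, GRCm38.p6, 5' to 3'). Capitals mark CCNCNCCC on either strand, the form of the CACCC box that KLF factors of erythroid cells are known to bind. Neighboring matches of Cat overlap.
Prdx2, chr8:84969372-84969586, plus strand: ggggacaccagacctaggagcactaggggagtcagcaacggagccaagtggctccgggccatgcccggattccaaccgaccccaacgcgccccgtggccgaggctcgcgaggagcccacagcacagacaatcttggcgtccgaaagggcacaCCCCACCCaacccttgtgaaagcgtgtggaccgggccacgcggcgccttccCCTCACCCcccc
Cat, chr2:103485161-103485403, minus strand: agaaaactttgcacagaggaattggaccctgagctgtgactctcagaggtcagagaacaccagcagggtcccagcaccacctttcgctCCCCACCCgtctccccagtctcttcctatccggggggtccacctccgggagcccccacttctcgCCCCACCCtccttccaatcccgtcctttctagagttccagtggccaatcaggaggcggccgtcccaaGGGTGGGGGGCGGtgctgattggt
Blvrb, chr7:27447728-27447977, plus strand: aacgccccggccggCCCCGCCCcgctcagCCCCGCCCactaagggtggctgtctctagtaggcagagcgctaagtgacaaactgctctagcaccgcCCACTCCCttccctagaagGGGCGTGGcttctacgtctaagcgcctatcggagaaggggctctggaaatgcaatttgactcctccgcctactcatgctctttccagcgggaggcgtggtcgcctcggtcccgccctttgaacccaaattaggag
In the 250 bases before the start, Prdx2 had 2 matches and Cat and the first entry of Blvrb had 4 each. Gpx1, the other member with high erythroid levels, had 0. This motif occurred in 45.9% of all 32851 promoters in the table and in 8 of the 9 members that had an entry, so it did not separate them. AGATAA or TGATAA, the GATA factor motif, occurred in Gpx4 alone among the members, against 16.6% of all promoters. TGACNNNGC, the core of the antioxidant response element, occurred in Prdx1 and Sod1 (10.2% of all), and TGANTCA, the AP-1 and NF-E2 motif, in Prdx1 (6.75% of all). In Prdx1 the TGACNNNGC match overlapped a TGANTCA match. A match is a run of letters, and binding was not measured.

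The first question was how the enzymes behave as erythroid cells fill with hemoglobin messenger RNA, and the answer divided them into members that gained share and members that lost it. Levels in this comparison are hemoglobin-free CPM, that is UMIs per 1000000 UMIs of all genes but the 8 hemoglobin genes, since hemoglobin took 4.16% of UMIs in the first and 91.6% in the last control stage (3.73% and 92.6% in DKO). Cat, Gpx1 and Prdx2 were at least 2-fold higher in the last than in the first stage in both libraries, 3 of 10 members, against 6.70% of the 4704 genes tested. Prdx6, Gpx4, Sod1 and Txn1 were at least 2-fold lower in both libraries, 4 of 10 members, against 74.6% of all tested genes. The median gene changed by -1.90 (log2) in control and -2.96 in DKO.

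Cat had the steepest course of the 10. From the first to the last stage it stood at 65.9, 101, 553, 2090.1 and 1777 hemoglobin-free CPM in the control library and at 57.3, 64.7, 459.8, 2583 and 2767 in the DKO library. That was 26.9-fold and 48.2-fold higher at the end, with most of the gain between 40% and 90% hemoglobin. Gpx1 ran through 1740.1, 4892, 11140.1, 19834 and 11834 hemoglobin-free CPM in control and 1569.8, 3925, 8762, 21075 and 20779.8 in DKO, 6.80-fold and 13.2-fold higher at the end. It peaked at 75 to 90% hemoglobin in both libraries, after which the control level dropped and the DKO level, with overlapping intervals, did not. Prdx2 gained earlier: its levels were 2321, 5756, 8202, 8586 and 7254 hemoglobin-free CPM in control and 1945, 4971, 7526, 8295 and 7619 in DKO. Its rise from the first to the last stage was 3.13-fold and 3.92-fold, and most of it was reached at 15 to 40% hemoglobin.

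Blvrb, whose product reduces the beta isomer of biliverdin, resembled Prdx2 in shape. Its levels were 2223, 4148, 4563, 5948 and 3974 hemoglobin-free CPM in control and 1535, 3444, 3500.2, 3906 and 3163 in DKO, which made 1.79-fold and 2.06-fold and left it just short of the 2-fold line in control. The 2 libraries were ordered alike at every stage, DKO below control.

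Among the members that lost share, Prdx6, a peroxiredoxin that works with glutathione, fell furthest. It went from 294 to 29.3 hemoglobin-free CPM in control, 9.53-fold lower, and from 263 to 21.6 in DKO, 11.8-fold lower. Gpx4, which reduces lipid hydroperoxides in membranes, first rose and then fell, with 755, 979.9, 1054, 274 and 218 hemoglobin-free CPM in control and 612, 800.2, 1022, 319 and 284 in DKO. Txn1 was slightly lower at each stage up to 75% hemoglobin and dropped in the fourth stage, with 655, 625, 531, 192 and 234 hemoglobin-free CPM in control and 648, 586, 541, 122 and 105 in DKO. Sod1 was lower at each later stage, with overlapping intervals in the last 2 stages and in the first 2 of control, and went from 150.2 to 56.9 hemoglobin-free CPM in control and from 253 to 37.6 in DKO.

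Prdx1 and Prdx5 did not pass the 2-fold line in both libraries. Prdx1, a cytosolic peroxiredoxin, was lowest at 40 to 75% hemoglobin, at 132 hemoglobin-free CPM in control and 105 in DKO, against 439.7 and 358 in the first stage. Prdx5, a peroxiredoxin of mitochondria and peroxisomes, stood at 87.7, 30.5, 31.7, 84.6 and 101 hemoglobin-free CPM in control and 66.1, 27.4, 22.2, 44.5 and 43.9 in DKO. Both levels went up again after 75% hemoglobin in the control library and less in the DKO library, although free RNA could supply 90.3% and 86.4% of the Prdx5 UMIs in the third, 98.9% and 78.2% in the fourth and 116% and 124% in the last stage of control and DKO.

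**Figure D1:**
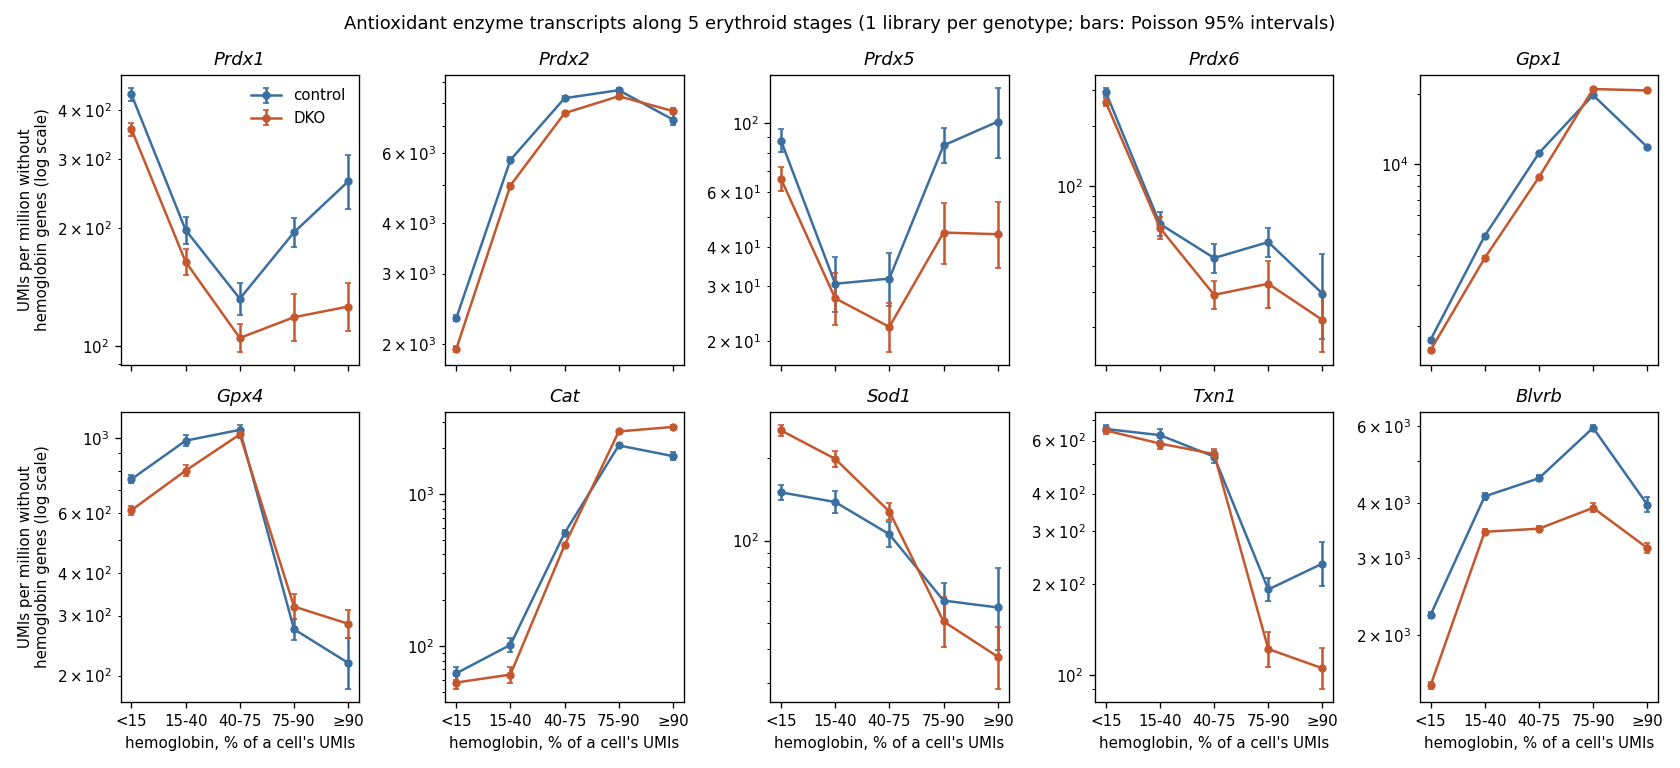
Hemoglobin-free CPM (vertical axis, log scale) of each member in 5 erythroid stages ordered by hemoglobin share (horizontal axis), for the control and DKO libraries, with Poisson 95% intervals as bars. Cat rises from 65.9 to 1777 in control and from 57.3 to 2767 in DKO, while Prdx6 and Sod1 fall.

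For Gpx1 and Prdx2 the gain was one in share and not in UMIs per cell, whereas Cat ended above its first stage on both scales. In UMIs per cell, Cat was 0.400 in the first, 1.61 in the fourth and 0.780 in the last control stage, and 0.579, 3.28 and 1.66 in the DKO stages. Gpx1 went from 10.6 over a peak of 30.4 to 5.19 UMIs per control cell, and from 15.8 over 39.7 to 12.5 per DKO cell. Prdx2 peaked at 15 to 40% hemoglobin, with 33.8 and 39.4 UMIs per cell, and ended at 3.18 and 4.57. Counted per cell, 0 of 10 members were at least 2-fold higher in the last stage in both libraries and 8 were at least 2-fold lower, against 0.446% and 97.0% of the 4704 tested genes. In shares of all UMIs, hemoglobin included, 1 was higher (Cat) and 8 were lower, against 0.638% and 96.2%. UMIs per cell also follow depth, which differed between stages and libraries. Median depth was 1382 UMIs in the first and 5131 in the last control stage, and 1633.5 and 7917 in the DKO stages.

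The second question was how DKO erythroid cells differ from control cells of the same hemoglobin share. Here levels are CPM over all UMIs of a stage, genes with a mean of at least 20 CPM over both libraries were counted as tested, and a change of at least 1.5-fold was the line. In each of the first 3 stages the interval of Sod1 was above 0 and those of Blvrb, Gpx1, Prdx1 and Prdx2 were below it. In each of them 7 of the 10 members had an interval below 0. The share of all tested genes with such an interval was not counted, so no excess among the members can be read from this. With under 15% hemoglobin, 0 of 10 members were at least 1.5-fold lower (2.32% of 5730 tested genes) and 1 was at least 1.5-fold higher (3.07%), namely Sod1. With 15 to 40%, 1 of 10 was lower (3.19% of 4175 genes), Cat, and 0 were higher (2.51%). With 40 to 75%, 0 of the 8 tested members were lower (5.28% of 2691 genes) and 0 higher (13%). The median over the 10 members was -0.22, -0.25 and -0.27 on the log2 scale in these stages. Over the 8 members tested in the third stage it was -0.17. The median over all tested genes was 0.10, 0.04 and 0.12.

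Sod1, which makes hydrogen peroxide from superoxide, had 923 UMIs (144 CPM) in the first control stage and 1821 UMIs (244 CPM) in the first DKO stage. On the log2 scale the DKO to control ratio was 0.76 (interval 0.65 to 0.88), then 0.52 (0.35 to 0.69) and 0.31 (0.12 to 0.50) in the next 2 stages. When each cell was given equal weight in place of each UMI, the ratio of the first stage was 0.21, under the 1.5-fold line. In that stage the highest share of free RNA that markers of other cells allowed was 8.31% of UMIs in control and 2.79% in DKO. After subtraction of these shares the ratio was 0.74. The subtraction used the empty droplets of the control library for both libraries, as the DKO table held called cells only. The part of free RNA in the ratio was thus not measured.

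Blvrb was lower in DKO in all 5 stages, from 2131 to 1478 CPM in the first and from 333 to 234 CPM in the last. Its ratios were -0.53, -0.27, -0.35, -0.50 and -0.51, each with an interval below 0 and each short of 1.5-fold. Other scalings carried it past that line, with -0.61 in the fourth stage without hemoglobin genes, and -0.63 in the first and -0.80 in the fourth stage when centred on the median gene. When stages were drawn over all cells whatever their cluster, the value for 15 to 40% hemoglobin was 0.00295, with no direction left. Prdx2 differed little, at -0.25 in the first, -0.22 in the second, -0.09 in the third, 0.06 in the fourth and -0.11 in the last stage. Cat crossed from lower to higher. It was at 72.7 and 46.1 CPM with 15 to 40% hemoglobin (log2 ratio -0.65, interval -0.90 to -0.41, from 323 and 255 UMIs) and at 293 and 390.3 CPM with 75 to 90% (0.41, 0.36 to 0.47). Gpx1 did the same, at -0.14, -0.32 and -0.32 in the first 3 stages and 0.19 in the fourth. The order of Gpx1 and Cat between the libraries thus turned once hemoglobin passed 75%. Centred on the median gene, the fourth-stage ratio of Gpx1 was -0.11, so that turn holds for Cat alone there.

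**Figure D2:**
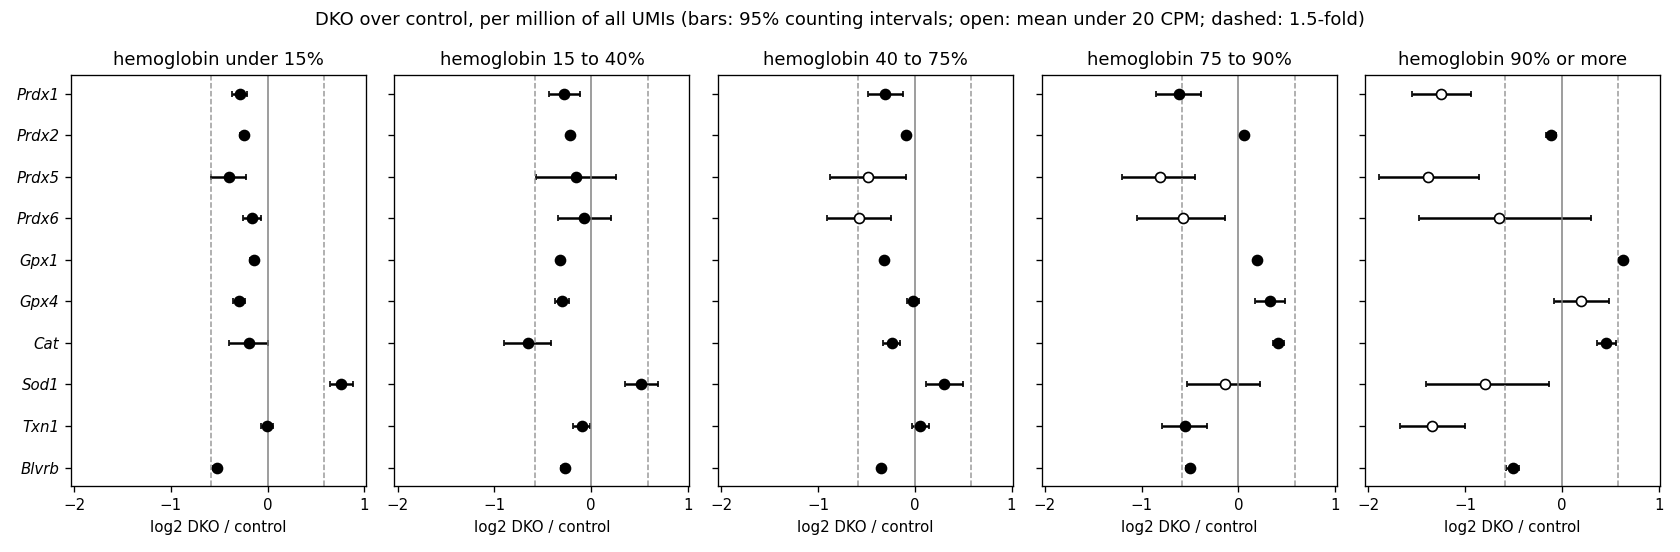
Log2 ratio of DKO over control in CPM of all UMIs (horizontal axis) for each member (vertical axis) in 5 erythroid stages, with 95% counting intervals as bars, open circles for members with a mean under 20 CPM and dashed lines at 1.5-fold. Sod1 moves from 0.76 in the first to -0.80 in the last stage, and Gpx1 from -0.14 to 0.63.

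With 75 to 90% hemoglobin, 1 of the 7 tested members was at least 1.5-fold lower in DKO (15.7% of 675 tested genes), Prdx1 at 27.4 and 17.9 CPM (log2 ratio -0.61, interval -0.85 to -0.38), and 0 were higher (38.1%). With 90% or more, 4 members reached 20 CPM. Of these, 0 were at least 1.5-fold lower (29.4% of 323 tested genes) and 1 was higher (13.6%), Gpx1. It had 7278 UMIs (993 CPM) in control and 32642 UMIs (1538 CPM) in DKO, a log2 ratio of 0.63 (interval 0.60 to 0.67). Cat stood at 149 and 205 CPM (0.46, 0.36 to 0.56), Prdx2 at 608 and 564 CPM (-0.11, -0.16 to -0.06) and Blvrb at 333 and 234 CPM (-0.51, -0.58 to -0.44). Of these 4, Gpx1 and Cat were above 0 and Prdx2 and Blvrb below, while the median tested gene was at -0.23.

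The Gpx1 value rested in part on which cells were counted. With barcodes above the order-of-magnitude UMI threshold alone it was 0.37, under the line, and with DKO cells weighted to the hemoglobin shares of control cells it was 0.89. Scaling without hemoglobin genes raised every ratio of the last stage by 0.18, to 0.81 for Gpx1, 0.64 for Cat, 0.07 for Prdx2 and -0.33 for Blvrb, so that Cat passed 1.5-fold and Prdx2 changed sign. On that scale 83 of all tested genes were lower and 66 higher, against 95 and 44 in shares of all UMIs. Centring on the median gene gave 79 and 70. In the fourth stage, centring turned 106 lower and 257 higher genes into 171 and 179.

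The other 6 members were under 20 CPM in the last stage. With no minimum level, 5 of the 10 members were at least 1.5-fold lower in DKO, against 66.5% of the 13186 genes with a UMI in this stage, namely Prdx1 at -1.25, Prdx5 at -1.38, Txn1 at -1.34, Sod1 at -0.80 and Prdx6 at -0.65, while Gpx4 was at 0.19. These ratios came from 162 control and 198 DKO UMIs of Prdx1, 144 and 165 of Txn1, 62 and 69 of Prdx5, 35 and 59 of Sod1, and 18 and 34 of Prdx6. Markers of another cell type were also lower in DKO in this stage, and their part in these ratios was not tested. All 6 of 6 neutrophil markers (S100a8, S100a9, Camp, Ngp, Ltf and Retnlg) were detected in erythroid cells of both libraries, and their summed level in the last stage was 8896 hemoglobin-free CPM in control and 4154 in DKO. Over the 5 stages the sum ranged from 1256 to 8896 in control and from 862 to 4154 in DKO.

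Free RNA from broken cells is taken up by every droplet. The profile of the control library's 1125245 empty droplets allowed it at most 2.51% of the UMIs of the last control stage and 1.03% of the last DKO stage, taking the neutrophil and B cell markers in erythroid cells as wholly free RNA. At these shares, free RNA would supply 116% of the Prdx5 UMIs in control and 124% in DKO, 66.7% and 69.4% of Txn1, and 88.5% and 55.9% of Prdx6. For Gpx4 the shares were 69.4% and 24.9%, for Sod1 46.5% and 32.9%, and for Prdx1 39.9% and 39.0%. Prdx5 was therefore not detectable above free RNA of that profile in the last stage of either library. The DKO table held called cells only, so free RNA of the DKO library was not measured and its shares rest on the control profile. The 4 tested members stood apart from these, since free RNA would supply at most 3.50% of Gpx1, 3.39% of Blvrb, 2.65% of Prdx2 and 2.23% of Cat in control, and less in DKO. After subtraction Gpx1 was at 0.65, Cat at 0.46, Blvrb at -0.51 and Prdx2 at -0.11, while Prdx1 was at -1.25, Txn1 at -1.48, Sod1 at -0.51 and Gpx4 at 1.45. Prdx5 and Prdx6 were left with under 3 UMIs in a library and have no ratio then.

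**Figure D3:**
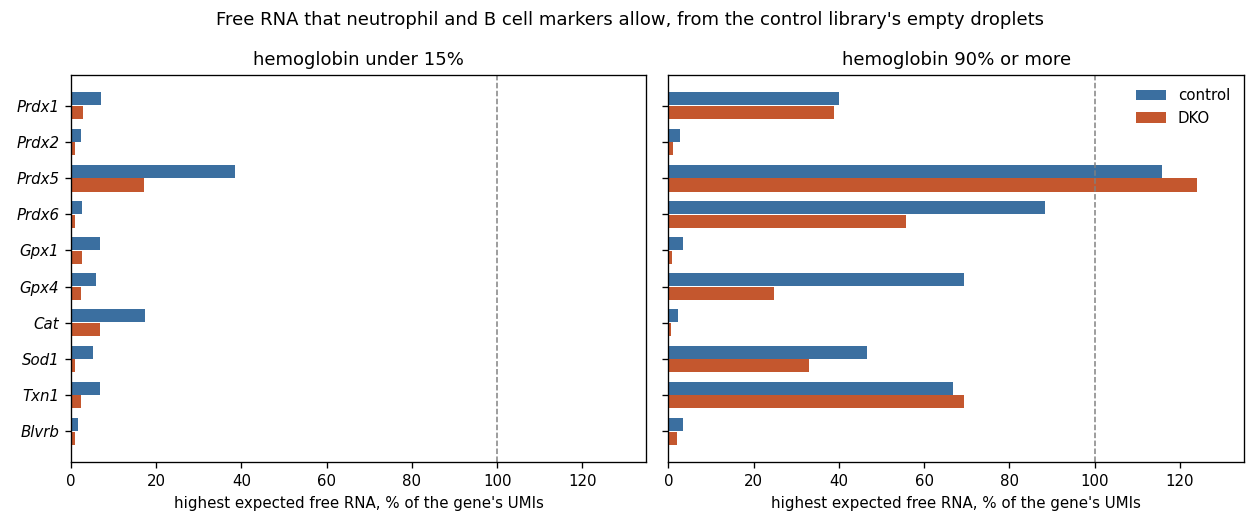
Highest share of each member's UMIs (horizontal axis, percent) that free RNA could supply in the first (left) and last (right) erythroid stage of the control and DKO libraries, with the dashed line at 100%. In the last stage Prdx5 passes the line in both libraries (116% and 124%), and Prdx2, Gpx1, Cat and Blvrb stay at or below 3.50%. The profile of the control library's empty droplets was used for both libraries.

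The 8 lists with 82 further genes of redox chemistry were read beside the members. In the first stage 55 of them were tested. Of these, 4 were at least 1.5-fold lower in DKO (2.32% of 5730 tested genes) and 1 was higher (3.07%). The lower ones were the glutathione transferases Gstp1 (log2 ratio -2.03) and Mgst3 (802 CPM in control and 401 in DKO), Hagh (log2 ratio -0.64) and heme oxygenase Hmox1 (log2 ratio -0.96), and the higher one was the cytosolic thioredoxin reductase Txnrd1 (log2 ratio 0.63). In the last stage 7 were tested, 0 lower (29.4% of 323 tested genes) and 1 higher (13.6%). The list medians of the first stage ran from -0.34 for heme and biliverdin breakdown to 0.18 for oxidant-responsive regulators on the log2 scale. By list, tested genes in the first and last stage were 11 and 2 for peroxiredoxins and the thioredoxin system, 10 and 3 for the glutathione system, 3 and 0 for superoxide dismutases and copper supply, 3 and 0 for heme and biliverdin breakdown, 7 and 1 for NADPH supply, 8 and 0 for oxidant-responsive regulators, 11 and 1 for selenoproteins, and 2 and 0 for methionine sulfoxide repair. The gene above the line in the last stage was Txnrd2, the mitochondrial thioredoxin reductase, at 24.3 and 36.7 CPM in control and DKO (log2 ratio 0.59, interval 0.36 to 0.84). The others tested there were Gclm, a subunit of the enzyme that starts glutathione synthesis (-0.28), Selenok (-0.28), Glo1 (-0.26) and Hagh (-0.25) of the glyoxalase pathway, Taldo1 of the pentose phosphate pathway (-0.20) and the mitochondrial glutaredoxin Glrx5 (-0.07). Along the stages, 10 of 53 tested list genes were at least 2-fold higher at the end in both libraries and 27 were lower. Those 10 included Hagh, 7.26-fold in control and 10.8-fold in DKO, and Gclm, 5.50-fold and 5.66-fold. Over all 4704 tested genes, 6.70% were higher and 74.6% lower. In the peroxiredoxin and thioredoxin list 8 of 12 were lower and 2 higher, Txnrd2 and Glrx5.

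Across the marrow, the 10 genes did not share a site of highest level. The comparison covered 11 non-erythroid classes of at least 50 cells in each library beside the 5 erythroid stages, 16 groups in all. In shares of all UMIs, Prdx2, Gpx1, Cat, Sod1 and Blvrb had their highest level in an erythroid stage in both libraries. Without hemoglobin genes in the scaling, Sod1 left this set, as its highest control level was then in macrophages (179.8 hemoglobin-free CPM), with an interval overlapping that of the first erythroid stage (150.2), as in DKO (248 and 253). On this scale Prdx2 reached 8586 in control and 8295 in DKO at 75 to 90% hemoglobin, against 905 and 483 in macrophages, the highest non-erythroid class, and 75.1 and 48.0 in neutrophils, the lowest. Blvrb was ordered similarly, with 5948 and 3906 at its peak and 1134 and 634 in macrophages.

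Other classes led for the remaining members. Prdx5 was highest in neutrophils, at 2126 hemoglobin-free CPM in control and 1739 in DKO, ahead of monocytes at 1070.2 and 979. Prdx1 was highest in macrophages, at 1687 and 1629, and lowest in neutrophils, at 57.5 and 39.7. Txn1 was high in both, with 1586 and 1497 in macrophages and 1511 and 1183 in neutrophils, and these 2 classes could not be told apart in control. Gpx4 was highest in megakaryocytes, at 1572 and 2673. Prdx6 was highest in granulocyte-monocyte progenitors in control (318) and in megakaryocytes in DKO (405). In control the Prdx6 intervals of these classes overlapped, so they could not be told apart there. Sod1 was lowest in neutrophils in both libraries, at 13.6 and 14.6. In the order of the 16 groups, 4 of 15 neighboring pairs of Prdx2 in control and 14 of 15 of Sod1 in control had overlapping intervals.

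**Figure D4:**
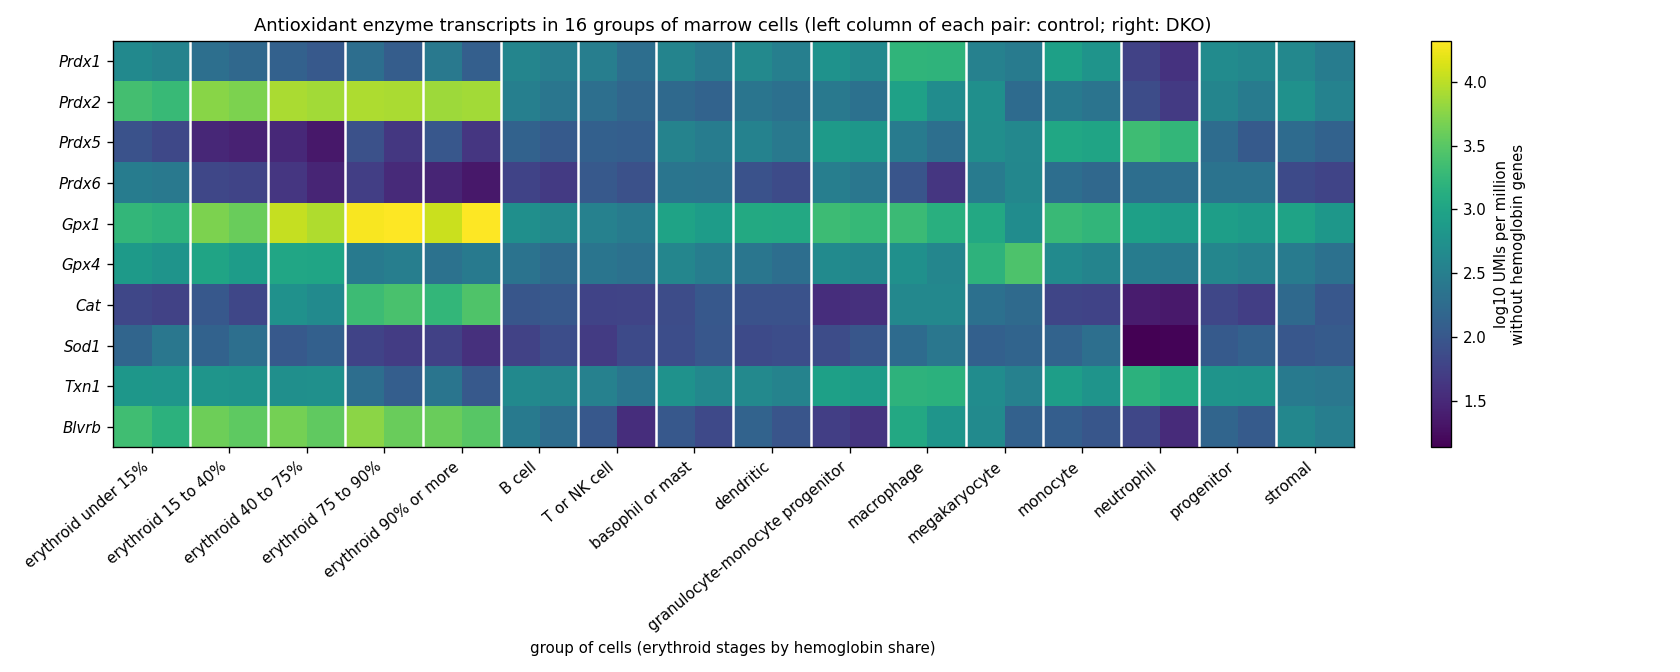
Level of each member (rows) in 16 groups of marrow cells (column pairs, control left and DKO right) as log10 of hemoglobin-free CPM, shown by color. Prdx2, Gpx1, Cat and Blvrb are brightest in erythroid stages, Prdx5 in neutrophils (2126 and 1739 hemoglobin-free CPM), Prdx1 in macrophages and Gpx4 in megakaryocytes.

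Between genotypes outside the erythroid stages, most members stood lower in DKO, and Sod1 again stood higher. Of 109 pairs of member and class with at least 20 CPM, 12 were at least 1.5-fold lower in DKO and 2 were higher, where over all genes 4.25% of pairs were lower and 11.0% higher. Blvrb accounted for 5 of the 12. It was below 0 in all 11 classes, with 62.3 and 32.4 CPM in neutrophils (log2 ratio -0.94, interval -1.07 to -0.81), 761 and 452 in macrophages (-0.75, -0.93 to -0.57) and 94.5 and 32.9 in T or NK cells (-1.51, -1.96 to -1.11). Prdx2 was also below 0 in all 11, and past the line in megakaryocytes (-1.42), macrophages (-0.82) and neutrophils (-0.64). The interval included 0 for Blvrb in stromal cells and for Prdx2 in dendritic cells and in basophils or mast cells. Sod1 was above 0 in all 11, from 0.10 in neutrophils to 0.55 in macrophages, and passed 1.5-fold in none. Its interval included 0 in basophils or mast cells, dendritic cells, megakaryocytes, neutrophils and stromal cells. In neutrophils and dendritic cells its ratio (0.10 and 0.14) was not above that of the median tested gene (0.16 and 0.15). In B cells it was at 53.9 and 72.3 CPM (log2 ratio 0.42, interval 0.25 to 0.59), and in monocytes at 137 and 193 (0.49, 0.38 to 0.60). Free RNA set by hemoglobin would supply 81.3% and 55.2% of the Sod1 UMIs in B cells. Hemoglobin allowed free RNA 49.4% and 45.0% of all B cell UMIs, but neutrophil markers allowed 3.94% and 3.85%.

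Beside the counts of Prdx2 and Blvrb stands the hemoglobin found in these classes. It took 7.06% of UMIs in control and 7.72% in DKO T or NK cells, 3.03% and 2.77% in neutrophils, and 32.8% and 28.7% in macrophages. At the ratio to hemoglobin of the empty droplets, free RNA would supply 232% of the Blvrb UMIs of control T or NK cells and 731% of the DKO ones, and 185% and 263% of Prdx2 and 152% and 266% of Blvrb in neutrophils. In T or NK cells the Prdx2 shares were 167% and 240.4%. By hemoglobin alone, Prdx2 and Blvrb were thus not detectable above free RNA of the control profile in neutrophils and in T or NK cells. Other markers allowed less free RNA. In control and DKO T or NK cells, hemoglobin allowed 48.7% and 53.2% of UMIs, and neutrophil markers 4.63% and 5.80%. In neutrophils hemoglobin allowed 20.9% and 19.1%, and B cell markers 6.27% and 5.99%. Detection of Prdx2 and Blvrb at those lower shares was not tested. By hemoglobin the shares were 107% and 128% for Prdx2 in B cells, and 101% and 127% for Blvrb in dendritic cells. For Blvrb the shares were 87.9% and 117% in B cells, 80.5% and 106% in granulocyte-monocyte progenitors, 101% and 74.8% in monocytes and 67.6% and 63.0% in progenitors. What free RNA did to the direction of Blvrb outside the erythroid stages was not tested. In macrophages hemoglobin was above its 14.5% in empty droplets, so that no such share could be set, and the part of foreign transcripts was not tested. By hemoglobin, free RNA would supply 140.5% and 119% of the Sod1 UMIs in neutrophils. In monocytes free RNA would supply 17.0% and 7.15% of Sod1, and in granulocyte-monocyte progenitors 11.0% and 9.03%.

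Megakaryocytes had 5 members past the line, more than any other class, 3 lower and 2 higher. The shares over all 4932 genes tested in that class were 9.37% lower and 21.2% higher. Gpx4 was higher in DKO, with 1700 UMIs (1286 CPM) in 371 control cells and 1498 UMIs (2443 CPM) in 104 DKO cells (log2 ratio 0.93, interval 0.82 to 1.03). Prdx6 was higher as well, at 234 and 370.2 CPM (0.66, 0.41 to 0.91), while Gpx1 was lower, at 937 and 445 CPM (-1.07, -1.27 to -0.88). In these cells hemoglobin took 18.2% of control and 8.62% of DKO UMIs, and the 6 neutrophil markers summed to 19328 and 507 hemoglobin-free CPM. Without hemoglobin genes in the scaling, Gpx4 was at 0.77, Prdx6 at 0.51, under the line, and Gpx1 at -1.23. The part of these foreign transcripts in the 5 megakaryocyte values past the line was not tested. The other pairs past the line were Prdx1 in T or NK cells (-0.74), Prdx5 in progenitors (-0.72), Prdx6 in macrophages (-0.97) and Blvrb in basophils or mast cells (-0.61). Prdx6 had 85 and 23 UMIs there, and Blvrb 81 and 44. By hemoglobin, free RNA would supply 57.8% of control and 106% of DKO UMIs of Prdx1 in T or NK cells. For Blvrb in basophils or mast cells it would supply 75.6% and 211%.

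**Figure D5:**
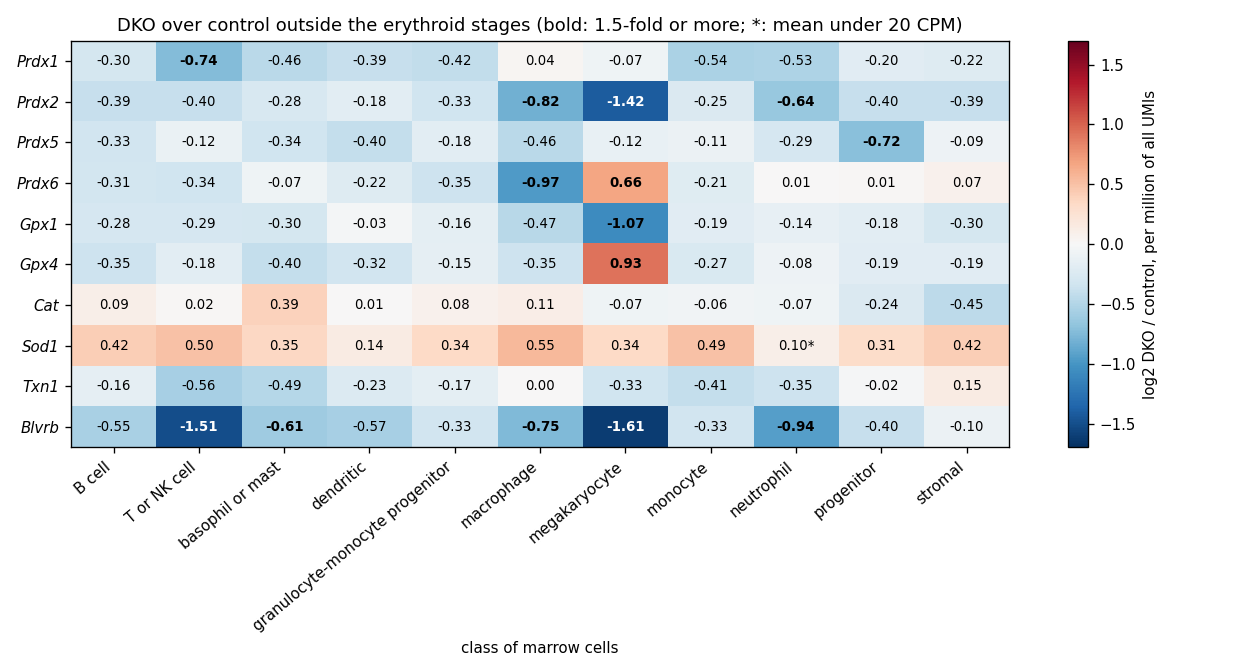
Log2 ratio of DKO over control in CPM of all UMIs for each member (rows) in 11 classes of marrow cells (columns), with the value printed in each field, bold from 1.5-fold and starred for a mean under 20 CPM. The Sod1 row lies above 0 throughout (0.10 to 0.55), the Prdx2 and Blvrb rows below 0, and Gpx4 in megakaryocytes has the highest value (0.93).

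Finally, the patterns over the 16 groups in both libraries were compared between genes, as Pearson correlations of log2 levels without hemoglobin over 32 points, among 5719 genes that reached 100 hemoglobin-free CPM. The points share libraries and stages, so the coefficients are descriptions. Prdx2 was most like Glrx5 (0.991), March5 (0.985) and Tspo2 (0.979). Among the genes most like Blvrb were Car2 (0.974) and Tspo2 (0.966), and among those most like Gpx1 were Tmem256 (0.973) and Sec61g (0.938). Cat was most like Bpgm (0.960), Tent5c (0.957) and Ghitm (0.955). Among these, Car2 is a known erythroid gene and Bpgm makes the red cell's 2,3-bisphosphoglycerate. Prdx5 was most like Pgd (0.944), Lamtor4 (0.924) and Msrb1 (0.920), and Prdx1 like Akr1a1 (0.887), Lap3 (0.860) and Snx5 (0.800). Lower coefficients were found for Prdx6, led by Rab5if (0.891), Gpx4 by Ufsp1 (0.883), Sod1 by Blvra, the other biliverdin reductase (0.833), and Txn1 by Gnb2 (0.796). Between members the coefficient was highest for Prdx2 and Blvrb (0.967), followed by Prdx2 and Gpx1 (0.869), and lowest for Prdx2 and Prdx5 (-0.799).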

How the data were processed

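Total bone marrow cells of control and DKO mice were profiled with Chromium 3' v3 chemistry, 1 library per genotype. The authors made the count tables with Cell Ranger, version 7.1.0 per the file headers and with build mm10 per the submitters' processing notes, and deposited raw UMI counts for 32285 genes without normalization, with 1518290 barcodes for control and 14142 called cells for DKO. Control cells were called by an order-of-magnitude threshold and, from 500 UMIs on, by a multinomial test against the profile of droplets with 100 UMIs or fewer, drawn 10000 times at a false discovery rate of 0.01. Cells over 20% mitochondrial UMIs (172 and 215) and doublets scored by Scrublet in scanpy (2.33% and 1.46%) were left out.

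Cells of both libraries were clustered without integration (2000 variable genes that excluded the members and redox lists, 30 components, 15 neighbors, Leiden resolution 1.0) and named from markers. A rule that leaves a cluster unnamed when its leading genes are those of another class was added after the clusters were seen, and it set aside 114 control and 90 DKO cells of 324 and 201 unnamed ones. Plasma cells (43 and 55) were below the minimum of 50 cells. UMIs were summed per library and group, and levels carry exact Poisson intervals. Log2 ratios of DKO over control had 1 count added to each sum and an exact conditional binomial interval. A gene was tested from 20 mean CPM. Counts of members past a fold are set beside the share of all tested genes past it. The 10 members and all lists were chosen with earlier results of these data known. All 10 members are named, with the list genes that had the 5 lowest and 5 highest ratios among those tested in the last stage, and for each member genes among the 3 of most similar pattern, of which some are not reported here. The list genes past the line in the first stage, and Hagh, Gclm, Txnrd2 and Glrx5 for their course, are named outside this rule, after their values were seen.

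Positions and transcripts came from GENCODE M21 (GRCm38), where 32235 identifiers were found. On simulated counts, 100% of 200 genes changed 2-fold were recovered in the first (5730 genes) and the last stage (323 genes), and 95.4% and 95.7% of intervals covered the true value. Those counts varied by Poisson counting error alone, which the intervals assume. The check therefore covers the computation, and not variation among cells or mice. Tools were scanpy 1.11.5, leidenalg 0.10.2, igraph 0.11.9, scikit-learn 1.9.0, scipy 1.17.1, pandas 2.3.3, numpy 2.4.6 and matplotlib 3.10.9 in Python 3.11.15.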

Additional observations from a re-analysis of the deposited data

Results flagged for a closer look

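Sod1, Gpx1 and Prdx6 stood past 1.5-fold in opposite directions in different groups of cells, with both counting intervals clear of 0 in shares of all UMIs. The difference between the groups was not tested, since there was 1 library per genotype. Sod1 was higher in DKO with under 15% hemoglobin (log2 ratio 0.76) and lower with 90% or more (-0.80), the latter from 35 control and 59 DKO UMIs. Without hemoglobin genes the last-stage interval included 0 (-1.23 to 0.05), and the ratio was under the line after subtraction of free RNA (-0.51) and with equal weight per cell (-0.44), as was the first-stage ratio with equal weight per cell (0.21). Gpx1 was higher with 90% or more hemoglobin (0.63) and lower in megakaryocytes (-1.07). Prdx6 was higher in megakaryocytes (0.66) and lower in macrophages (-0.97). The marker and hemoglobin values of the 2 megakaryocyte libraries are given beside these ratios above, and their part was not tested.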

How the results depend on the processing

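The 26 alternatives set at the start and 2 added after the data had been seen gave 634 further ratios in erythroid stages, of which 508 stayed within the counting interval and 126 moved beyond it, and 497 in other classes, of which 441 stayed and 56 moved. In both families 0 ratios past the line changed sign. Among the class pairs past the line, only Prdx5 in progenitors kept a ratio after subtraction of free RNA. For the others that setting could show no turn. Of 100 values of the course along the stages, 70 moved and 9 turned. After subtraction of free RNA 18 of these 20 moved and 0 turned, with 4 members higher and 6 lower in both libraries. The 6 include Prdx5 and Prdx6, left with under 3 UMIs of the last stage in a library, so their values rest on the subtraction. The share of all tested genes was not counted in this setting. In the last stage, 1 member was at least 1.5-fold higher in shares of all UMIs. The number was 2 without hemoglobin genes in the scaling, without hemoglobin and ribosomal protein genes, centred on the median gene, with DKO cells weighted to the control hemoglobin shares, and in the added setting without hemoglobin genes and with no minimum level, and it was 0 with barcodes above the order-of-magnitude threshold alone. Lower members numbered 0, but 5 with no minimum level, 4 in the added setting just named, and 1 above the order-of-magnitude threshold. Members 2-fold higher at the end of the stages numbered 3 without hemoglobin, 1 in shares of all UMIs and 0 per cell, and members 2-fold lower 4, 8 and 8. In shares of all UMIs the log2 change along the stages was -1.87 and -1.73 for Prdx2 in control and DKO, -0.75 for Gpx1 in control and -2.66 for Blvrb in DKO, and per cell it was -2.15 and -2.10 for Prdx2, -1.02 and -0.34 for Gpx1 and -3.03 for Blvrb in DKO, each above 0 without hemoglobin. The cause was not tested. Pairs higher in other classes numbered 2, and 1 without hemoglobin genes. Subtracting free RNA by hemoglobin could not be done in macrophages, megakaryocytes and stromal cells, where hemoglobin was above its share in empty droplets in at least 1 library, and left 23 class values and 3 stage values under 3 UMIs. The last stage held 7332877 control and 21221122 DKO UMIs, of which hemoglobin took 91.6% and 92.6%, and this limits what can be read of members under 20 CPM. No paired analysis was possible because each genotype had 1 library.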
